A study of Mus musculus with 10 samples.

Results

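Later introns, those after the first intron of a transcript, are the parts of a gene where many enhancers lie: stretches of open DNA that bind transcription factors and can act on the host gene's promoter or on the promoter of a neighbour. NF-kB, which TNFa signalling activates, and the SMAD proteins, which BMP signalling activates, both bind such elements as well as promoters, often beside factors that already hold a site open in the cell type, such as AP-1, RUNX and TEAD proteins. The windows described here are the accessible windows of 125 bp in later introns that were called in all 4 groups of an ATAC-seq experiment. The cells were MC3T3-E1, an osteoblast line from mouse calvaria. The rule that defines them uses annotation, position and a call in each group. They therefore hold no window that gained or lost its call with TNFa or BMP4. A window of the list of untreated cells belonged to them if it was annotated to an intron other than the first, lay in no annotated repeat, and had a window starting within 62 bp in each of the other 3 lists. That left 2006 of 14722 windows shared by the 4 lists (13.6%).

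In ATAC-seq a transposase inserts adapters into open chromatin, and sequenced fragments pile up where DNA is accessible. There were 2 libraries in each group: cells given TNFa, an inflammatory cytokine, at 10 ng/ml; cells given both TNFa and BMP4; cells given BMP4, a bone morphogenetic protein, at 10 ng/ml for 3 h; and untreated cells. All cells were first held for 30 min in medium with 2.5% serum, and the labels name no genetic change. The labels give 3 h for TNFa, whereas the treatment protocol has it added 30 min before BMP4, and p65, the NF-kB subunit, stands in the titles of that group and no other, for a reason not given. Comparisons with the TNFa group therefore assume that its libraries were made like the rest. Sonicated DNA gave the authors 2 background libraries. Nothing in the labels ties the 2 libraries of a group to separate cultures, and a p-value then reflects only how far these libraries differ, possibly for technical reasons.

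Total tags (in M, 1000000 tags) ran from 16.5 M to 21.8 M in libraries with TNFa and from 26.05 M to 30.1 M in those without it, so depth moved with TNFa in every comparison that involves it, and its part in the results was not tested. Of these tags, 3.56% to 5.74% fell in the 14706 shared windows that had enough tags to test. Over the later-intron windows, libraries of the same group correlated at 0.39 to 0.75 and libraries of different groups at 0.35 to 0.95. The highest value was between untreated replicate 2 and BMP4 replicate 2, and the counts of windows in each comparison are also given without both of them. Of 14 osteoblast markers, 12 were the host or nearest gene of a shared window of any annotation (Alpl and Bglap were of none), against 5 of 15 chondrocyte, 5 of 11 adipocyte, 5 of 18 muscle and endothelial and 5 of 17 haematopoietic markers, so most osteoblast markers had a window and most markers of the other types had none.

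A few of the windows are shown here as sequence, because each lies at or just upstream of an annotated start of a transcript, mostly of another transcript than the host's, and so could be read whole from RefSeq's promoter sequences (GRCm38.p6, the build of mm10). The centre of the window was 17 bp before that start in Pam, 54 bp in Arhgef19, 69 bp in Slc36a3, 71 bp in Synj2, 149 bp in Bcl3 and 165 bp in Mir100hg, so that only the Pam and Arhgef19 windows reach over it. Each is printed 5′ to 3′ on the strand of that transcript, and capitals mark any of 11 motifs found on either strand. Synj2, which encodes a phosphoinositide phosphatase, is shown for its high level with TNFa, Slc36a3, an amino acid transporter gene, for its low level with TNFa, Mir100hg, the host of a microRNA cluster, for an NF-kB match, Pam, which encodes an enzyme that amidates peptides, for a pair of AP-1 matches, Arhgef19, a guanine nucleotide exchange factor gene, for AP-1 and RUNX matches, and Bcl3, a nuclear partner of NF-kB subunits, as an NF-kB target gene. They were picked after their values had been seen.
Synj2 intron 2 (chr17:5977305-5977429, minus strand): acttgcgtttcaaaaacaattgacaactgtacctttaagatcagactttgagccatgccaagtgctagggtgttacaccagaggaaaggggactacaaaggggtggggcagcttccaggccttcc
Slc36a3 intron 6 (chr11:55136868-55136992, plus strand): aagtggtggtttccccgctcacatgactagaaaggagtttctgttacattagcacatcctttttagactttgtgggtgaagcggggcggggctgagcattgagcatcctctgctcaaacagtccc
Mir100hg intron 3 (chr9:41579749-41579873, minus strand): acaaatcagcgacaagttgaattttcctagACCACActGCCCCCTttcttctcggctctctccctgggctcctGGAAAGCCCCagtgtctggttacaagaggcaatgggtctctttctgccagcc
Pam intron 7 (chr1:97911024-97911148, plus strand): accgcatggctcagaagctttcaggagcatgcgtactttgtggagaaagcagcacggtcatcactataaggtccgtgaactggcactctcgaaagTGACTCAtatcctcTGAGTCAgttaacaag
Arhgef19 intron 2 (chr4:141244972-141245096, plus strand): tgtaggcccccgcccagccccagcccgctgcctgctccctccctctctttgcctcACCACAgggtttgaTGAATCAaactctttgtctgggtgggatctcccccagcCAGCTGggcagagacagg
Bcl3 intron 2 (chr7:19816374-19816498, plus strand): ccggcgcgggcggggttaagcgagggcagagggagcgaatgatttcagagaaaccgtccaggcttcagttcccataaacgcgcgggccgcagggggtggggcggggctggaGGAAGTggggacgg

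The Synj2 window held 190.4 and 156 CPM with TNFa and 178 and 165 with both factors, against 77.9 and 23.7 with BMP4 and 76.5 and 46.1 in untreated cells. CPM is the tag count per 1000000 scaled tags in tested windows. Every library given TNFa was above every library without it, by a log2 fold change of 1.72 ± 0.46 (SE; limma, adjusted p = 0.856). The Slc36a3 window held 23.6 and 23.6 CPM with TNFa and 20.6 and 20.2 with both factors, against 42.3 and 150.5 with BMP4 and 41.2 and 122 in untreated cells. Its 4 libraries given TNFa lay together below all others, while the libraries without TNFa split by replicate number, and the log2 fold change was -1.70 ± 0.52. Neither of these windows held a letter match to any of the 11 motifs. The Mir100hg window carries the letters of an NF-kB site (GGG and TTTCC with any 2 bases between), with RUNX (TGTGGT) and CTCF core (AGGGGGC) letters, and held 23.6 and 42.5 CPM with TNFa and 26.1 and 51.5 with both factors, against 21.15 and 23.1 with BMP4 and 30.3 and 30.95 in untreated cells, so its groups overlapped. The Pam window carries the AP-1 letters TGANTCA at 2 places and held 35.4 and 41.35 CPM with TNFa and 19.2 and 42.6 with both factors, against 14.5 and 22.5 with BMP4 and 29.4 and 18 in untreated cells. The Arhgef19 window, with AP-1, RUNX and E-box (CAGCTG) letters, was at 0.07 ± 0.52 for TNFa and 0.49 ± 0.52 for BMP4. The Bcl3 window, with the ETS letters GGAAGT, held 33.7 and 60.25 CPM with TNFa and 27.4 and 29.1 with both factors, against 8.90 and 28.1 with BMP4 and 18.5 and 28.8 in untreated cells.

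Of the 11 windows that RefSeq's promoter sequences cover whole, 1 held the NF-kB letters, against 0.761% of 32851 RefSeq promoters searched over the 125 bases before the start. AP-1 letters stood in 2 of 11 (3.60% of promoters), RUNX letters in 3 (6.99%), E-box letters in 3 (7.00%), TEAD letters (GGAATG) in 2 (6.10%), and the SMAD GC-rich box (GGCGCC), CTCF core and ETS letters in 1 each (6.23%, 6.04% and 11.9%). The letters searched for C/EBP (TTGCNNCAA), TCF/LEF (CTTTGAA) and NFI (TTGGC and GCC with any 5 bases between) stood in none of the 11, and in 0.712%, 1.89% and 0.655% of promoters. Both strands were searched, and E-box and TEAD letters can overlap. A match describes letters and does not show that a factor binds.

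Sharing between the lists differed by class. Of 4263 later-intron windows of untreated cells outside repeats, 47.1% were in all 4 lists, against 71.3% of promoter, 50.8% of first-intron and 50.1% of intergenic windows. Of the 2006, 1998 were annotated to a later intron in each list, and 331 started at the same base in all 4. The windows lay in 1197 host genes that could be matched to RefSeq, 1137 of them protein coding, and 786 hosts held 1 window each. Intron 2 held 578 windows (28.8%), the median was intron 4, and 203 windows lay in the last intron of their transcript. The median distance to the nearest transcript start was 33.8 kb, against 4.23 kb for first introns and 28.3 kb for intergenic windows. The host was also the nearest gene for 1244 of 2001 windows (62.2%). For the rest, the nearest start belonged to another gene, and windows are named below by their host, with the nearest gene added for some. CpG islands, stretches rich in CpG that mark many constitutive promoters, covered 40 of the windows (2.00% of those tested), against 17.8% in first introns.

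The tag level of these windows was low compared with promoters, while the fold over background was not. The mean over the 8 libraries ran from 7.46 to 588 CPM, with a median of 40.9 and quartiles of 23.4 and 70.5. In each library the median level of later introns, as log2 of the scaled tag count plus 2, was set against that of another class. It was lower than that of promoters by 0.31 to 0.65 in 8 of 8 libraries (mean difference -0.50 ± 0.12, SD). Against first introns the mean difference was -0.22 ± 0.15, lower in 7 of 8 libraries, and against intergenic windows -0.07 ± 0.05, lower in 7 of 8. With only windows of a mean count of at least 30, a filter that removes low windows of each class, the differences came to -0.17, -0.07 and -0.07. The median log2 fold over background in the authors' deposited table was 3.77 with TNFa, 3.76 with both factors, 4.19 with BMP4 and 4.04 in untreated cells for later introns. For promoters the authors' deposited table gave 3.60 with TNFa, 3.62 with both factors, 3.82 with BMP4 and 3.73 in untreated cells. Windows in CpG islands had a median of 74.9 CPM, and the others 40.2. Those under 5 kb from a start had 47.5 CPM and those at 100 kb or more 32.1 CPM. The spread of a window over the 8 libraries, highest minus lowest log2 level, had a median of 1.81, the same as in first introns (1.81) and above promoters (1.61).

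The 8 highest windows belonged to a small set of genes. A pair of them is nearest to Bahcc1, which encodes a chromatin protein with a BAH domain, in intron 2 of a transcript with no match in RefSeq (chr11:120256676-120256800 and chr11:120257025-120257149), and the first held 881 and 555 CPM with TNFa and 950.4 and 711 with both factors, against 644 and 182 with BMP4 and 556 and 227 in untreated cells. Others of the 8 were in Camk2g, which encodes a calmodulin-dependent kinase subunit, in Plec, which encodes the cytolinker plectin, in Traf3ip3, in Arid1b, which encodes a subunit of the BAF remodelling complex, and in Ano1, a chloride channel gene, nearest to Fadd, the adaptor of death receptors. The Camk2g window held 366 and 449 CPM with TNFa and 319.5 and 243 with both factors, against 295 and 493 with BMP4 and 261 and 578 in untreated cells, and its highest values were in replicate 2 of the untreated and BMP4 groups. The Traf3ip3 window varied less, with 313 and 296.5 CPM with TNFa and 354 and 338 with both factors, against 354 and 371.5 with BMP4 and 237 and 364 in untreated cells. Among windows above the median level, the 4 with the smallest range over the libraries were in Loxl1, which encodes a crosslinker of elastin, in Ampd3, in Itgb3, which encodes integrin beta 3, and in Rab30. The Loxl1 window held 52.2 and 68.5 CPM with TNFa and 58.97 and 66.1 with both factors, against 54.5 and 63.1 with BMP4 and 58 and 71.99 in untreated cells, so no group stood out.

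**Figure D1:**
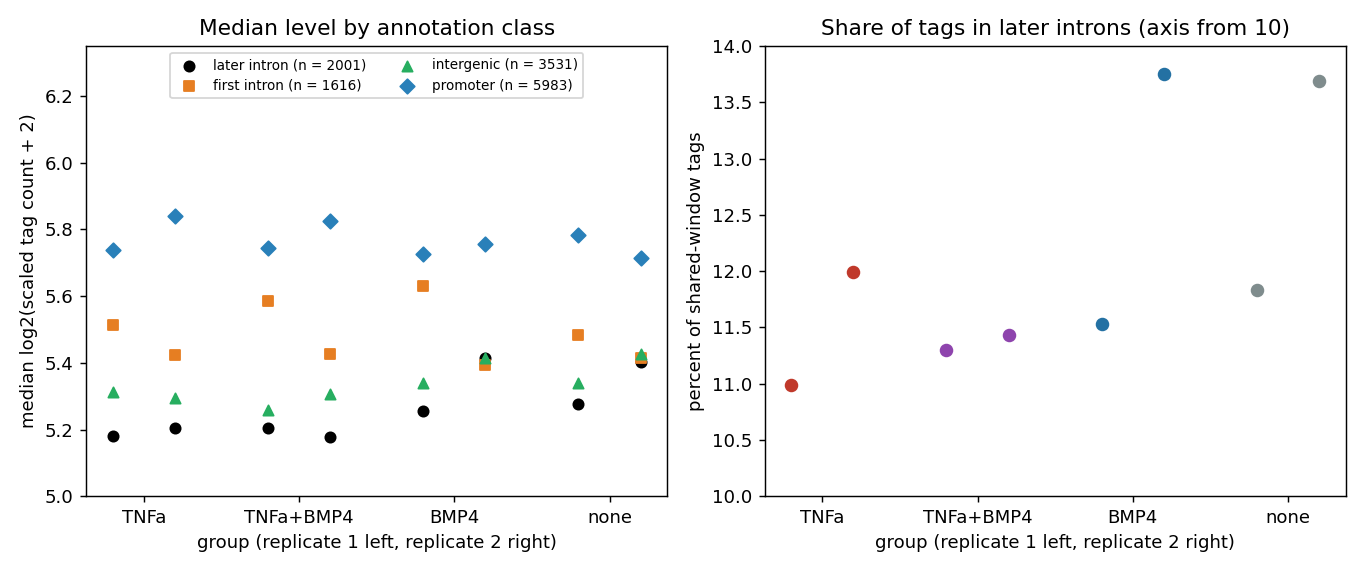
Left, the median log2(scaled tag count + 2) of each annotation class of shared windows in each of the 8 libraries, with replicate 1 on the left and replicate 2 on the right of each group. Right, the percent of the tags in shared windows that fell in later introns, on an axis that starts at 10. Later introns lie lowest in 7 of 8 libraries against first introns, and untreated replicate 2 and BMP4 replicate 2 hold the 2 highest shares, 13.7% and 13.8%.

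TNFa was compared with its absence to ask how the cytokine bears on intron accessibility, over both BMP4 states (the main effect, 4 libraries against 4). The later introns as a class sat slightly lower with TNFa, and no single window passed the test in the fit without a replicate block. The median log2 fold change was -0.13 for the 2001 tested later-intron windows and 0.00 for all 14706 tested (-0.004). Of the later-intron windows, 41.1% were above 0, against 49.6% of all tested. Medians of the other classes were 0.02 in first introns, -0.04 in intergenic windows and 0.04 in promoters. Scaling by total tags lowered the median of all windows to -0.15, and later introns were at -0.28 there, again 0.13 below it. Without the pair of untreated replicate 2 and BMP4 replicate 2 the later introns' median was -0.07. The share of shared-window tags in later introns was 10.99% and 11.99% with TNFa and 11.3% and 11.4% with both factors, against 11.5% and 13.8% with BMP4 and 11.8% and 13.7% in untreated cells. The mean share was 11.4% ± 0.418 in the 4 libraries given TNFa and 12.7% ± 1.18 in the 4 without (SD), and the ranges overlapped. The difference of -1.27 percentage points became -0.25 without the pair named above. The median level, as log2 of the scaled tag count plus 2, was 5.18 and 5.20 with TNFa and 5.21 and 5.18 with both factors, against 5.26 and 5.42 with BMP4 and 5.28 and 5.40 in untreated cells, and libraries with and without TNFa did not overlap. Median levels of intergenic windows did not overlap either, at 5.26 to 5.31 in libraries given TNFa and 5.34 to 5.43 in the others. Those of first introns and promoters overlapped. Total depth was also lower in every library given TNFa. In bulk ATAC-seq, fewer cells with an open site and a less open site in each cell cannot be told apart.

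By limma on log2 values, 0 later-intron windows had an adjusted p under 0.05 for the TNFa main effect, as did 0 of all 14706 windows (0%). The call depended on the replicate number. With it as a block, 27 later-intron windows had an adjusted p under 0.05 (1.35%, background 0.83%), 15 higher and 12 lower, although the labels give the numbers no shared source. They included those of Mapt, Bahcc1, Lhfpl2, Slc2a1, Synj2, Itpkb, Cdkl3, Dclk2, Vps53, Sertad4, Galk2 and Lpp, and the second Ltbp2 window. Without the block, at an unadjusted p under 0.05 there were 174, or 8.70% of later introns, against a background of 4.39% of all windows tested. By class the share was 7.48% in intergenic windows, 4.95% in first introns and 0.769% in promoters, so intergenic windows came near later introns. Of the 174, 63 were higher with TNFa (3.15%, background 1.75%) and 111 lower (5.55%, background 2.63%). The count rested on single libraries. It fell without untreated replicate 2, BMP4 replicate 2, either TNFa library or either library of both factors. It rose without untreated replicate 1 or BMP4 replicate 1. Without both untreated replicate 2 and BMP4 replicate 2 it was 72. All 4 libraries given TNFa lay above all 4 without it in 50 later-intron windows (2.50%, background 1.81%) and below in 102 (5.10%, background 2.63%). The windows named next have the smallest unadjusted p among those whose groups did not overlap, so their fold changes describe these libraries and passed no test without the block.

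Higher with TNFa was first a window in intron 6 of Mapt, which encodes the microtubule-associated protein tau (chr11:104303716-104303840). It held 106 and 96.9 CPM with TNFa and 174 and 144.5 with both factors, against 33.4 and 20.6 with BMP4 and 25.2 and 18.7 in untreated cells. These values rest on 63 and 82 tags with TNFa and 30 and 26 tags in untreated cells. Every library given TNFa was far above the highest of the others, and the log2 fold change was 2.32 ± 0.37 (SE; limma, adjusted p = 0.856). Another window nearest to Bahcc1 (chr11:120251480-120251604) held 446 and 327 CPM with TNFa and 295 and 237.5 with both factors, against 75.7 and 61.2 with BMP4 and 134 and 122 in untreated cells. It too separated fully, at 1.75 ± 0.33, and the pair of very high Bahcc1 windows further on were at 1.12 ± 0.46 and 1.06 ± 0.47. In Lhfpl2, a gene of the tetraspan family, a window in intron 2 (chr13:94132786-94132910) held 72.4 and 85.1 CPM with TNFa and 54.9 and 112 with both factors, against 10.02 and 26.85 with BMP4 and 26.1 and 12.96 in untreated cells. In Slc2a1, which encodes the glucose transporter GLUT1, a window in intron 2 (chr4:119125984-119126108) held 119.6 and 88.6 CPM with TNFa and 96 and 99.7 with both factors, against 17.8 and 36.8 with BMP4 and 36.98 and 35.99 in untreated cells. Both were higher in each library given TNFa, at 2.05 ± 0.46 and 1.65 ± 0.38.

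Lower with TNFa was a window in intron 2 of Itpkb, a kinase gene of inositol phosphate signalling (chr1:180393517-180393641), which held 10.1 and 15.4 CPM with TNFa and 15.1 and 11.2 with both factors, against 33.4 and 56.2 with BMP4 and 37.8 and 62.6 in untreated cells. These rest on 6 and 13 tags with TNFa and 45 and 87 tags in untreated cells. The groups did not overlap, and the log2 fold change was -1.70 ± 0.38 (adjusted p = 0.856 by limma, as for each window of the TNFa main effect named here). A window in the last intron of Cdkl3, nearest to Ppp2ca, which encodes the catalytic subunit of the phosphatase PP2A (chr11:52086609-52086733), held 25.3 and 16.5 CPM with TNFa and 23.3 and 12.3 with both factors, against 52.3 and 84.9 with BMP4 and 58.8 and 94.3 in untreated cells. A window in intron 4 of Vps53, which encodes a subunit of a vesicle tethering complex (chr11:76148762-76148886), held 23.6 and 20.1 CPM with TNFa and 41.1 and 35.85 with both factors, against 133.5 and 71.2 with BMP4 and 79.85 and 78.5 in untreated cells. In Dclk2, a doublecortin-like kinase gene, a window in intron 2 (chr3:86873344-86873468) held 23.6 and 37.8 CPM with TNFa and 34.3 and 28 with both factors, against 85.7 and 119.9 with BMP4 and 75.65 and 97.9 in untreated cells. Each of the 3 was lower in every library given TNFa, by log2 fold changes of -1.81 ± 0.40, -1.54 ± 0.37 and -1.56 ± 0.37. For TNFa alone against untreated cells, a window in intron 3 of Zfp521, whose product binds Runx2 and restrains it in mouse osteoblasts (chr18:13850561-13850685), held 18.5 and 9.45 CPM with TNFa, against 43.7 and 51.1 in untreated cells (-1.69 ± 0.51; limma, adjusted p = 1).

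**Figure D2:**
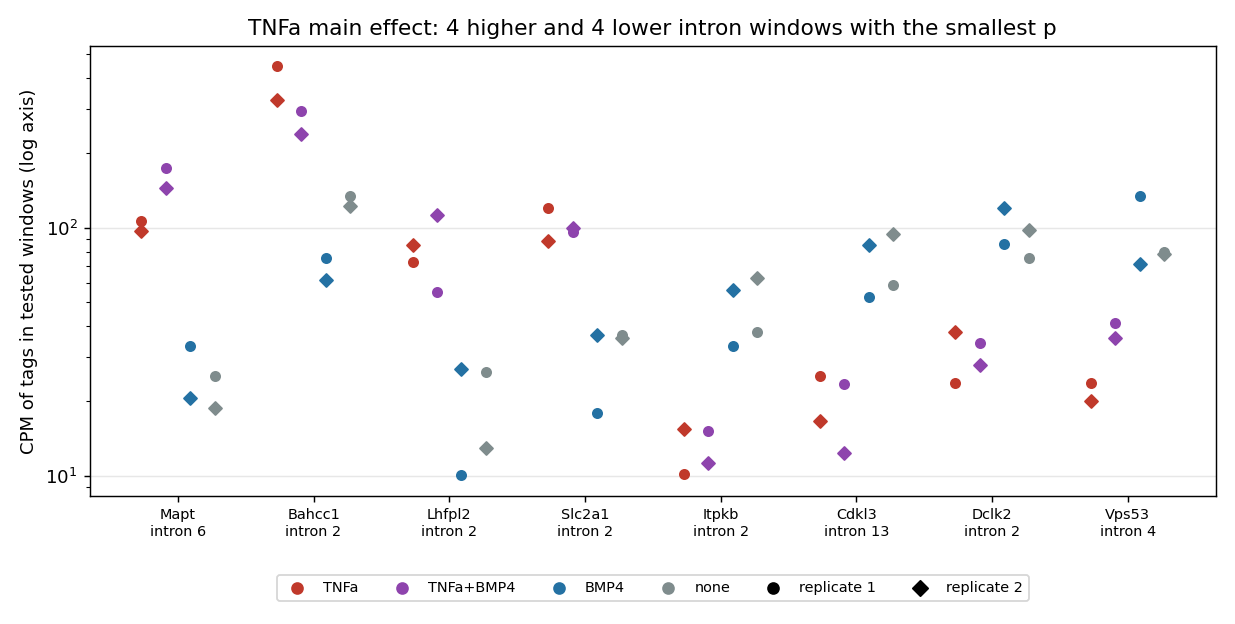
CPM of tags in tested windows (log axis) in each library for the 4 higher and 4 lower later-intron windows with the smallest p for the TNFa main effect among windows whose groups do not overlap; colours are groups, circles replicate 1 and diamonds replicate 2. By that choice every library that had TNFa lies on one side of every library without it, for example 96.9 to 174 CPM against 18.7 to 33.4 CPM in Mapt.

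The simple comparisons gave fewer windows. For TNFa alone against untreated cells, 37 later-intron windows were at an unadjusted p under 0.05 (1.85%, background 1.02%, intergenic windows 1.84%). Of the 37, 16 were higher (0.8%, background 0.415%) and 21 lower (1.05%, background 0.605%). The median log2 fold change over all later introns tested was -0.15, with 41.1% above 0 (background 49.1%). The count was 83 without untreated replicate 1, 61 or 63 without one or the other BMP4 library, 24 without either library of both factors, 16 without TNFa replicate 1, 13 without untreated replicate 2, and 23 without untreated replicate 2 and BMP4 replicate 2 together. For both factors against BMP4 there were 56 (2.80%, background 1.63%, intergenic windows 2.89%), 20 higher (1%, background 0.714%) and 36 lower (1.8%, background 0.911%). The median was -0.15, with 43% above 0 (background 50.1%), and the count was 317 without BMP4 replicate 1, but 27 without BMP4 replicate 2, 35 or 36 without one or the other TNFa library, 37 without the first library of both factors, 12 without the second, and 31 without that same pair. By limma, 0 had an adjusted p under 0.05 in either comparison, as did 0 of all windows tested (0% in each). The comparisons share no library, but the same fit and estimate of spread served both, so their p-values are not independent. The windows with the smallest p for both factors against BMP4 again included those of Mapt and Bahcc1. The Galk2 window, in intron 7 of this sugar kinase gene (chr2:125941250-125941374), held 76.8 and 72.8 CPM with both factors, against 24.5 and 11.9 with BMP4. One in intron 2 of Sertad4 (chr1:192849816-192849940) held 48 and 79.5 CPM with both factors, against 7.79 and 20.6 with BMP4. Lower were windows of Cdkl3 and Dclk2, as above, and one in intron 4 of Wwp2, a ubiquitin ligase gene (chr8:107468970-107469094), which held 52.1 and 28 CPM with both factors, against 118 and 218.5 with BMP4. The Wwp2 values of untreated cells differed widely between replicates, at 93.3 and 243 CPM.

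BMP4 was compared with its absence over both TNFa states. The later introns as a class sat with the other windows, with a median log2 fold change of -0.01 and 48.6% of windows above 0, against -0.01 and 49.4% for all windows tested. The share of shared-window tags in later introns averaged 12% ± 1.17 in the 4 libraries given BMP4 and 12.1% ± 1.13 in the 4 without (SD). By limma, 0 later-intron windows and 0 of all windows had an adjusted p under 0.05 for the BMP4 main effect (0%). At an unadjusted p under 0.05 there were 21 (1.05%, background 1.11%), a share near the background, 13 higher (0.65%, background 0.632%) and 8 lower (0.4%, background 0.476%). The count was 198 without BMP4 replicate 2, 44 without TNFa replicate 1 and 45 without the second library of both factors, but 12 without BMP4 replicate 1, 8 without TNFa replicate 2 and 4 without the first library of both factors. It was 65 without untreated replicate 2 and BMP4 replicate 2 together. All 4 libraries given BMP4 lay above all 4 without it in 17 windows (0.85%, background 0.775%) and below in 16 (0.8%, background 0.87%).

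The windows named next again have the smallest p among those whose groups did not overlap. The smallest was at a window in the last intron of Sox6, a SOX factor gene known for its part in cartilage formation (chr7:115481876-115482000, 320 kb from the nearest start). It held 73.45 and 63.7 CPM with BMP4 and 82.3 and 49.3 with both factors, against 26.95 and 7.09 with TNFa and 23.5 and 24.5 in untreated cells. The 4 libraries given BMP4 were all above the other 4, and the log2 fold change was 1.73 ± 0.45 (SE; limma, adjusted p = 1). In intron 13 of Senp1, a SUMO protease gene, nearest to Pfkm, a window (chr15:98049441-98049565) held 202.5 and 123 CPM with BMP4 and 195 and 80.65 with both factors, against 79.2 and 40.2 with TNFa and 52.1 and 68.4 in untreated cells. The Slx4ip window in intron 4, nearest to Jag1, which encodes a Notch ligand (chr2:137014084-137014208), held 33.4 and 8.74 CPM with BMP4 and 37.03 and 15.7 with both factors, against 5.05 and 8.27 with TNFa and 8.41 and 8.64 in untreated cells. One in intron 29 of Ttll5, nearest to Tgfb3, which encodes the ligand TGF-beta 3 (chr12:85973672-85973796), held 50.1 and 43.7 CPM with BMP4 and 46.6 and 43.7 with both factors, against 23.6 and 15.4 with TNFa and 30.3 and 32.4 in untreated cells. The Ttll5 window was the tightest of these, with groups that did not overlap and an SE of 0.34 around a log2 fold change of 0.86. The Slx4ip window rests on 14 to 30 tags in libraries given BMP4 and 3 to 12 in the others, and BMP4 replicate 2 barely cleared the untreated libraries.

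Lower with BMP4 was a window in intron 2 of Cpq, which encodes a carboxypeptidase (chr15:33196763-33196887), with 5.565 and 8.74 CPM with BMP4 and 5.49 and 6.72 with both factors, against 18.5 and 28.4 with TNFa and 12.6 and 19.4 in untreated cells. A window in intron 2 of the unnamed gene Gm29684 (chr10:95139800-95139924) held 72.3 and 72.4 CPM with BMP4 and 38.4 and 60.5 with both factors, against 84.2 and 117 with TNFa and 157 and 155.5 in untreated cells. One in the last intron of Kctd17 (chr15:78437820-78437944) held 116 and 108 CPM with BMP4 and 85.03 and 98.6 with both factors, against 168.5 and 170.1 with TNFa and 236 and 191 in untreated cells, and one in intron 7 of Acte1 (chr7:143888334-143888458) held 46.7 and 43.1 CPM with BMP4 and 27.4 and 43.7 with both factors, against 64.02 and 63.8 with TNFa and 86.6 and 78.5 in untreated cells. The groups did not overlap in any of the 4, and the log2 fold changes were -1.30 ± 0.36, -1.05 ± 0.36, -0.89 ± 0.33 and -0.85 ± 0.36 (adjusted p = 1 by limma for each).

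**Figure D3:**
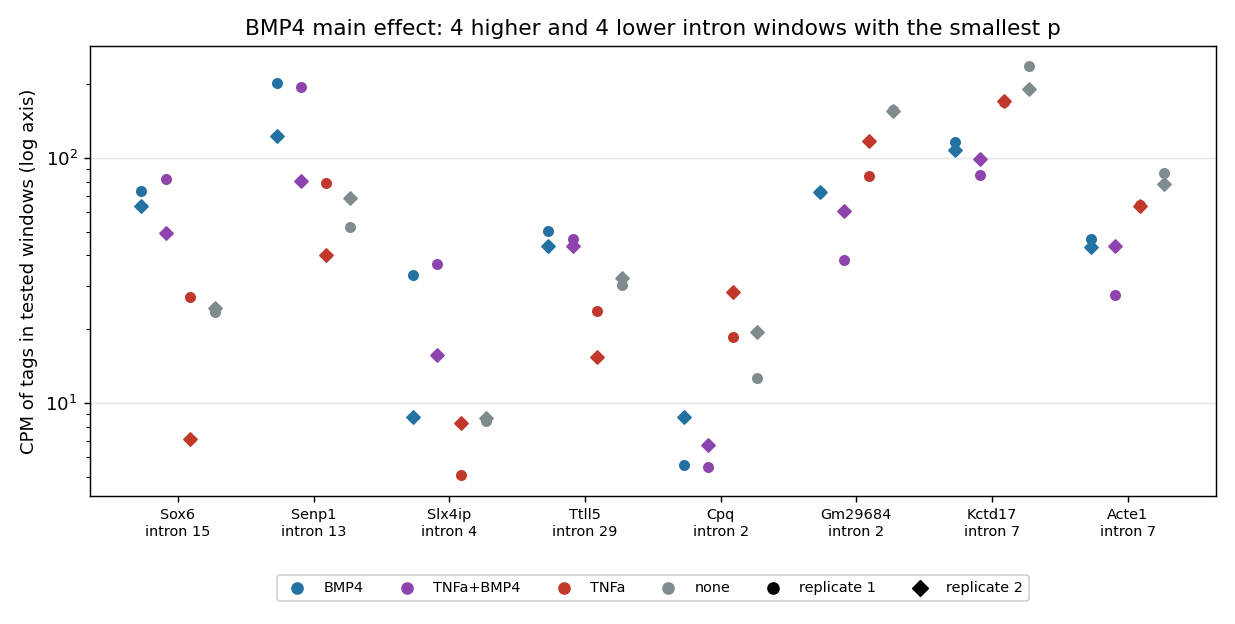
CPM of tags in tested windows (log axis) in each library for the 4 higher and 4 lower later-intron windows with the smallest p for the BMP4 main effect among windows whose groups do not overlap; colours are groups, circles replicate 1 and diamonds replicate 2. By that choice the libraries given BMP4, alone or with TNFa, lie on one side of those without it, as in Sox6 with 49.3 to 82.3 CPM against 7.09 to 26.95 CPM.

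For BMP4 alone against untreated cells, 1 later-intron window was at an unadjusted p under 0.05 (0.05%, background 0.197%; 1 higher against a background of 0.163%, 0 lower against 0.034%), and by limma 0 had an adjusted p under 0.05 (0% of all windows). Of all later introns 48% were above 0 (background 49%). The count was 130 without BMP4 replicate 2, 19 without untreated replicate 2, 7 without BMP4 replicate 1, 4 without either library of both factors, 2 without untreated replicate 1, and 29 without untreated replicate 2 and BMP4 replicate 2 together. The window lies in intron 3 of Gse1, nearest to Gins2 (chr8:120563867-120563991), and held 207 and 89.3 CPM with BMP4, against 29.4 and 53.99 in untreated cells. Among windows whose groups did not overlap, the next in order were the first of the Ltbp2 windows described below and a window in intron 5 of Pde4b, a cyclic AMP phosphodiesterase gene, with 26.7 and 21.85 CPM with BMP4, against 7.565 and 13.7 in untreated cells, and on the low side the Gm29684 window and windows of Niban1, Ptk2, which encodes focal adhesion kinase, and Spryd3. The Ptk2 window (chr15:73243274-73243398) held 6.68 and 18.1 CPM with BMP4, against 31.1 and 25.9 in untreated cells. For both factors against TNFa, 6 windows were at an unadjusted p under 0.05 (0.3%, background 0.279%), 4 higher (background 0.156%) and 2 lower (background 0.122%), and by limma 0 had an adjusted p under 0.05 (0% of all windows). Of all later introns 50.6% were above 0 (background 50.8%). The count was 16 without TNFa replicate 1 and 11 without the second library of both factors, 3 without either untreated library 2 without the first library of both factors, and 10 without untreated replicate 2 and BMP4 replicate 2 together. They again held those of Sox6, Ttll5, Slx4ip and Cpq, which share these libraries with the main effect. In intron 8 of Parp8 a window (chr13:116917607-116917731) held 2.74 and 8.96 CPM with both factors, against 20.2 and 51.98 with TNFa.

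Both factors against untreated cells gave a wider spread of fold changes than either factor alone, in later introns and over all windows. Quartiles over all windows were -0.52 and 0.51 for both factors, -0.38 and 0.35 for TNFa and -0.35 and 0.33 for BMP4. The median log2 fold change of later introns was -0.16, with quartiles of -0.72 and 0.47, against -0.02 for all windows, and 43.4% were above 0 (background 48.9%). By limma, 0 had an adjusted p under 0.05 (0% of all windows). At an unadjusted p under 0.05 there were 101 (5.05%, background 2.53%, intergenic windows 4.19%), 45 higher (background 1.13%) and 56 lower (background 1.4%). The count was 12 without untreated replicate 2, 16 and 64 without the first and the second library of both factors, 65 without TNFa replicate 1 and 27 without untreated replicate 2 and BMP4 replicate 2 together, and 168, 171 and 155 without BMP4 replicate 1, BMP4 replicate 2 and untreated replicate 1. Mapt led, with 174 and 144.5 CPM with both factors, against 25.2 and 18.7 in untreated cells. In intron 2 of Ifitm10 a window (chr7:142363191-142363315) held 63.1 and 87.4 CPM with both factors, against 26.1 and 12.2 in untreated cells. On the low side, the window in intron 11 of Cnksr3 (chr10:7126456-7126580) held 8.23 and 5.60 CPM with both factors, against 21.85 and 48.2 in untreated cells, and the Gm29684 window held 38.4 and 60.5 CPM with both factors, against 157 and 155.5 in untreated cells. In Gm29684 the single factors lay between, at 84.2 and 117 CPM with TNFa and 72.3 and 72.4 with BMP4. The test of whether one factor's effect depended on the other, the interaction, had 0 windows with an adjusted p under 0.05 (0%) and 0 at an unadjusted p under 0.05 by limma (1 without that pair), with a median of 0.05 for later introns, of which 54.9% were above 0 (background 53.9%).

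A cluster in intron 3 of Ltbp2, which encodes a latent TGF-beta binding protein of microfibrils, holds 3 neighbouring windows, and their nearest start is that of D030025P21Rik. The first (chr12:84846596-84846720) held 92.7 and 67.3 CPM with TNFa and 200.2 and 134 with both factors, against 136 and 36.8 with BMP4 and 32.8 and 13.7 in untreated cells. The second (chr12:84846956-84847080) held 163 and 76.8 CPM with TNFa and 279.8 and 205 with both factors, against 141 and 26.85 with BMP4 and 40.35 and 7.20 in untreated cells. The third (chr12:84847666-84847790) held 47.2 and 57.9 CPM with TNFa and 54.9 and 50.4 with both factors, against 16.7 and 21.2 with BMP4 and 19.3 and 18 in untreated cells. In the third the 4 libraries given TNFa stood alone, at 1.39 ± 0.33 for TNFa and 0.01 ± 0.33 for BMP4, whereas BMP4 replicate 1 was also high in the first and second. For both factors against untreated cells the log2 fold changes were 2.83 ± 0.73, 3.62 ± 0.95 and 1.40 ± 0.47 (SE; limma, adjusted p = 0.898 for the first and second). Another Ltbp2 window in intron 19 (chr12:84794747-84794871) was at 1.29 ± 0.46 for TNFa, one in intron 35 at 0.20 ± 0.39 and one in intron 2 at -0.85 ± 0.72. In the intron 2 window, replicate 1 held 11.1 CPM with BMP4 and 15.1 in untreated cells, and replicate 2 held 88.7 and 66.95. The sign of that window is therefore uncertain.

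**Figure D4:**
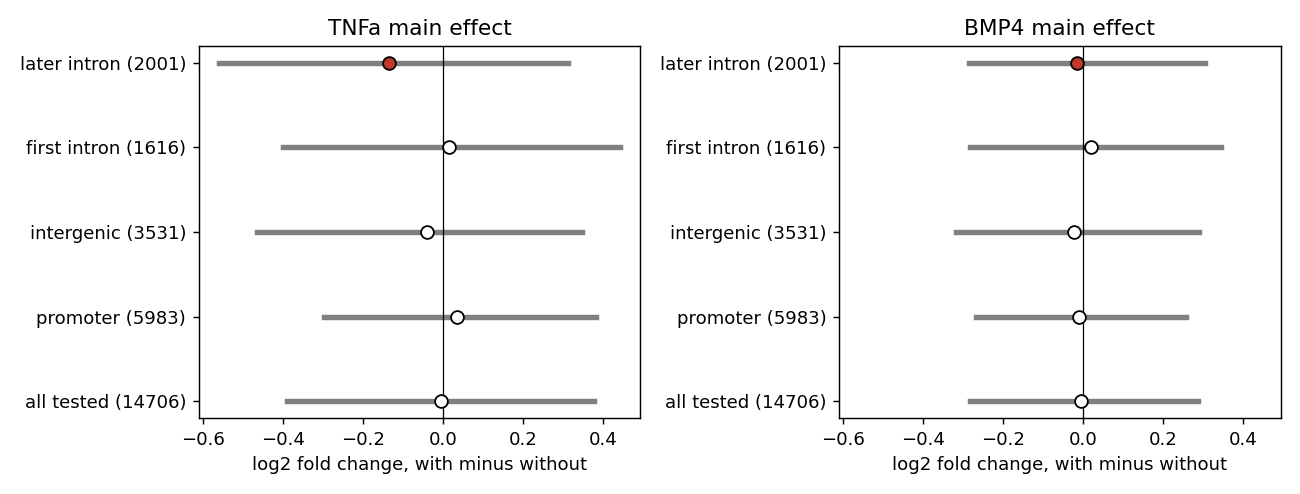
Median (circle) and quartiles (bar) of the log2 fold change, with minus without the factor, for each annotation class of shared windows and for all tested windows, with the number of windows in brackets. For TNFa the later introns (red) have the lowest median of the classes, -0.13, and for BMP4 all medians lie between -0.02 and 0.02.

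Of the windows assigned to gene lists by host or nearest gene, those of NF-kB target genes were few, with the highest median for TNFa of the lists with more than 1 window. The list of 45 genes had 9 windows at 8 genes, 5 of them above 0 for the TNFa main effect, with a median log2 fold change of 0.83 against 0.00 (-0.004) for all windows, and by limma 0 with an adjusted p under 0.05. A window nearest to Irf1, an interferon regulator gene, in a neighbouring noncoding transcript (chr11:53803229-53803353) held 307 and 184 CPM with TNFa and 340.1 and 245 with both factors, against 177 and 110.5 with BMP4 and 156 and 129 in untreated cells. One in intron 2 of Zc3h12a, whose product degrades inflammatory mRNAs (chr4:125122648-125122772), held 158 and 152 CPM with TNFa and 126 and 189 with both factors, against 70.1 and 79.9 with BMP4 and 99.2 and 97.2 in untreated cells. Traf2, an adaptor gene of TNF receptors, had a window in intron 4 at 0.98 ± 0.47. The list was split, with 5 windows from 0.83 to 0.98 and 4 below 0: Vcam1 at -0.13, a second Irf1 window at -0.42, Nod2 at -0.53 and Nfkb1 at -0.90, so the median is the lowest of the upper 5. The Irf1 and Zc3h12a windows were at unadjusted p of 0.0364 and 0.0390, by limma, with an adjusted p of 0.856 each.

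BMP and SMAD target genes had 10 windows at 5 of 37 genes. For the BMP4 main effect 8 of 10 were above 0, with a median of 0.38, and for TNFa 4 of 10, with a median of -0.11. Over all windows tested, 49.4% were above 0 for BMP4 and 49.6% for TNFa, the background for every list. Haematopoietic markers also had 8 of 10 above 0 for BMP4 (median 0.37), and AP-1 and early response genes 0 of 5. None of the BMP and SMAD target windows reached an unadjusted p under 0.05 for BMP4. The window nearest to Atoh8, a bHLH factor gene known as a BMP target (chr6:72216771-72216895), held 64.55 and 144 CPM with BMP4 and 46.6 and 61.6 with both factors, against 20.2 and 51.98 with TNFa and 45.4 and 115 in untreated cells, so its groups overlapped for BMP4. Osteoblast genes had 19 windows at 11 of 39 genes, 12 above 0 for BMP4 (median 0.20) and 9 above 0 for TNFa (median -0.05), with 1 higher and 3 lower at an unadjusted p under 0.05 for TNFa (background 1.75% and 2.63%). Runx2, the master regulator of osteoblast formation, counts in both lists and had windows of both signs. Its window in the last intron of a transcript (chr17:44592720-44592844) held 43.8 and 61.4 CPM with TNFa and 43.9 and 32.5 with both factors, against 80.1 and 117 with BMP4 and 66.4 and 149.7 in untreated cells, and another in intron 5 (chr17:44660252-44660376) held 25.3 and 20.1 CPM with TNFa and 35.7 and 29.1 with both factors, against 22.3 and 8.74 with BMP4 and 16.8 and 10.8 in untreated cells. A window in intron 2 of Fgfr1, a fibroblast growth factor receptor gene (chr8:25536738-25536862), held 33.7 and 34.3 CPM with TNFa and 56.2 and 17.9 with both factors, against 135 and 120.5 with BMP4 and 60.5 and 138 in untreated cells. A window in the last intron of Hdac9, nearest to Twist1, a transcription factor gene that opposes Runx2 (chr12:34075982-34076106), held 43.8 and 66.2 CPM with TNFa and 32.9 and 86.25 with both factors, against 14.5 and 20.6 with BMP4 and 29.4 and 30.95 in untreated cells. The log2 fold changes of Fgfr1 and Twist1 for TNFa were -1.65 ± 0.48 and 1.16 ± 0.42, each with an adjusted p of 0.856 by limma.

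Genes of cell death and survival had 15 windows at 9 of 42 genes, 7 above 0 for TNFa (median -0.02) and 12 above 0 for BMP4 (median 0.16). Bbc3, which encodes the death-promoting protein PUMA, had a window in intron 2 (chr7:16313154-16313278) with 470.0 and 179.6 CPM with TNFa and 359 and 268 with both factors, against 260.4 and 49.95 with BMP4 and 212 and 59.75 in untreated cells, so its groups overlapped. In Bcl2l1, which encodes the survival protein BCL-XL, a window in the last intron (chr2:152785658-152785782) held 16.85 and 48.4 CPM with TNFa and 45.3 and 17.9 with both factors, against 86.8 and 209.8 with BMP4 and 42.03 and 225 in untreated cells, and one in Bcl2l13 held 20.2 and 70.9 CPM with TNFa and 24.7 and 40.3 with both factors, against 36.7 and 223 with BMP4 and 52.96 and 219 in untreated cells. In both, replicate 2 of untreated and BMP4 cells was the high pair, and replicate 1 of these groups was far lower. AP-1 and early response genes had 5 windows, 3 above 0 for TNFa (median 0.26) and 0 for BMP4 (median -0.47). All were assigned by nearest gene, to Ier2, Egr3 or Klf2, and lie in introns of other genes. No AP-1 subunit gene is among them. The one nearest to Klf2, in an intron of Eps15l1 (chr8:72350994-72351118), held 10.1 and 14.2 CPM with TNFa and 10.97 and 12.3 with both factors, against 15.6 and 19.98 with BMP4 and 11.8 and 25.2 in untreated cells.

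Cytoskeletal and YAP/TEAD genes, which answer to cell tension, held the most windows, 59 at 27 of 52 genes. Of these 23 were above 0 for TNFa (median -0.15), with 1 higher and 5 lower at an unadjusted p under 0.05 (background 1.75% and 2.63%). In Lpp, a focal adhesion gene, a window in intron 10 (chr16:24932077-24932201) held 8.42 and 16.5 CPM with TNFa and 6.86 and 11.2 with both factors, against 26.7 and 52.45 with BMP4 and 16.8 and 47.5 in untreated cells, and in Palld, which encodes the actin organiser palladin, one in intron 10 held 18.5 and 17.7 CPM with TNFa and 32.9 and 12.3 with both factors, against 48.97 and 58.1 with BMP4 and 27.7 and 59.03 in untreated cells. In Lpp every library given TNFa was below every other, and in Palld so were all but the first library of both factors. Wnt and TGF-beta pathway genes had 32 windows at 13 of 47 genes, of which 8 were above 0 for TNFa, with a median of -0.40 against -0.13 for all later introns, and 2 were lower at an unadjusted p under 0.05 (background 2.63%). Among them, a window in intron 9 of Dlgap1, nearest to Tgif1, a repressor of TGF-beta targets (chr17:70794422-70794546), held 43.8 and 47.3 CPM with TNFa and 42.5 and 42.6 with both factors, against 66.8 and 204 with BMP4 and 94.1 and 178 in untreated cells. Its log2 fold change was -1.44, while the other 5 windows of Dlgap1 nearest to Tgif1 ran from 0.00 to 0.67. Collagen and matrix genes had 46 tested windows at 23 of 69 genes, 26 above 0 for TNFa (median 0.14). At an unadjusted p under 0.05, 5 were higher and 3 lower (background 1.75% and 2.63%). Most of the 5 lie in Ltbp2, 3 of them as neighbours in intron 3 and another in intron 19, so the count comes largely from 1 gene. No window of any list had an adjusted p under 0.05 for either main effect by limma without the block.

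Lists of other cell types gave few windows. Chondrocyte markers had 1, the Sox6 window, and adipocyte markers and housekeeping genes none. Muscle and endothelial markers had 4, in Pecam1 and Vwf, of which 0 were above 0 for TNFa (median -0.52) and 4 above 0 for BMP4 (median 0.60). A Pecam1 window in intron 2 (chr11:106713761-106713885) held 236 and 312 CPM with BMP4 and 229 and 197 with both factors, against 139.8 and 90.97 with TNFa and 129 and 224 in untreated cells. Haematopoietic markers had 10, of which 8 lie in Runx1, with 4 of the 10 above 0 for TNFa and 8 for BMP4. In Fli1, an ETS factor gene, a window nearest to Kcnj1 (chr9:32434674-32434798) held 23.6 and 18.9 CPM with TNFa and 27.4 and 26.9 with both factors, against 72.3 and 72.4 with BMP4 and 43.7 and 53.99 in untreated cells, with no overlap of groups, while a Runx1 window in intron 3 (chr16:92620835-92620959) held 67.4 and 40.2 CPM with TNFa and 57.6 and 44.8 with both factors, against 33.4 and 16.2 with BMP4 and 28.6 and 14.4 in untreated cells. Runx1 is also expressed in skeletal cells.

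**Figure D5:**
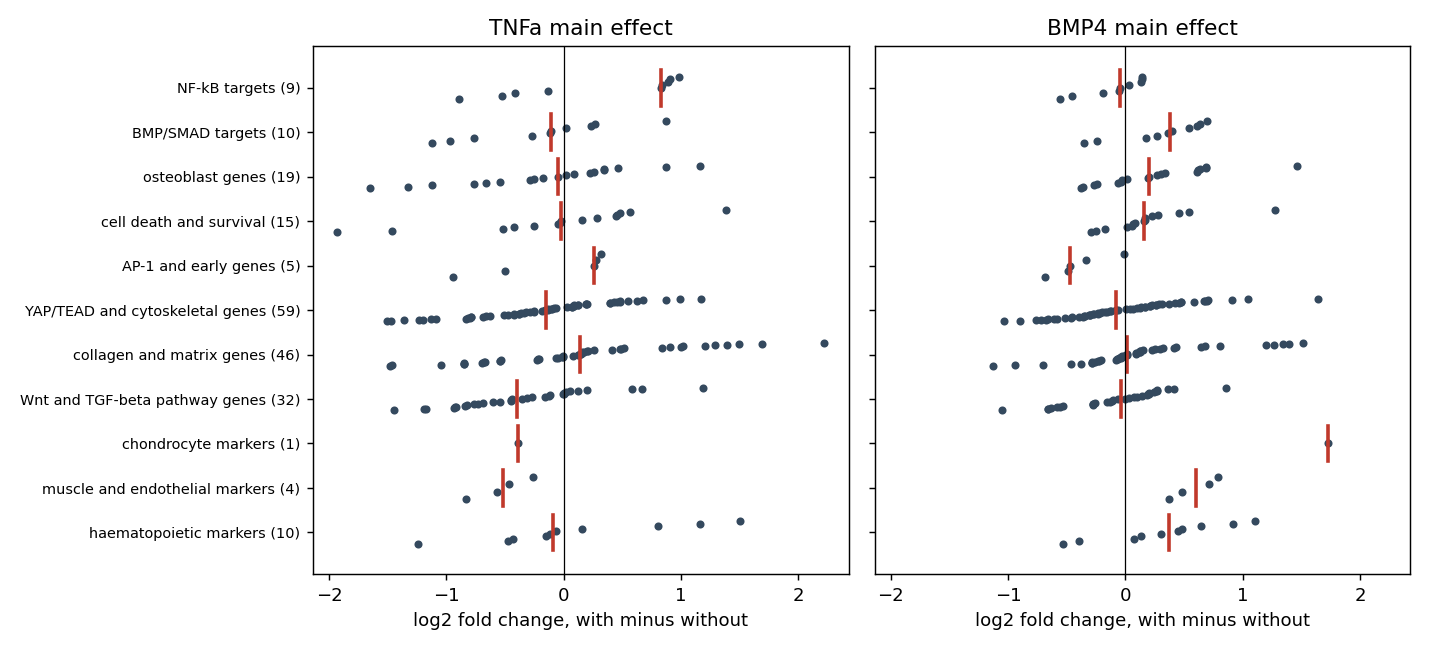
Log2 fold change, with minus without the factor, of each later-intron window of the gene lists (points) with the list's median (red line) and the number of windows in brackets. NF-kB targets have a median of 0.83 for TNFa and -0.05 for BMP4, and Wnt and TGF-beta pathway genes -0.40 for TNFa.

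Some genes held many windows. By the nearest-gene column, Aopep, an aminopeptidase gene, had 15, Rad51b, a gene of homologous recombination, 9, and Dmrt1, Runx1, Tns3 and Trabd2b 8 each. The 8 windows nearest to Dmrt1 all lie in introns of Kank1, whose product regulates actin. The Aopep windows differed in level and sign. The highest (chr13:63094448-63094572) held 168.5 and 141 CPM with TNFa and 121 and 172.5 with both factors, against 150.2 and 112 with BMP4 and 228 and 134 in untreated cells, at -0.01 ± 0.36 for TNFa, whereas one in intron 11 (chr13:63231793-63231917) held 25.3 and 36.6 CPM with TNFa and 12.3 and 26.9 with both factors, against 31.2 and 74.9 with BMP4 and 68.9 and 92.15 in untreated cells, at -1.32 ± 0.44. In Trabd2b, whose product cleaves Wnt proteins, 3 neighbouring windows in intron 4 were at 0.64 ± 0.32, 0.51 ± 0.52 and 0.34 ± 0.41 for BMP4, and the second held 277 and 70.6 CPM with BMP4 and 289 and 239 with both factors, against 209 and 138 with TNFa and 172 and 65.5 in untreated cells. In Runx1 the 8 windows ran from -0.47 upwards for TNFa, and the highest, at 1.504 ± 0.74 (chr16:92609853-92609977) held 131 and 31.9 CPM with TNFa and 193 and 82.9 with both factors, against 128 and 18.1 with BMP4 and 32.8 and 10.8 in untreated cells, with replicate 1 above replicate 2 in every group. Over all windows, 394 (19.6%) lay within 1000 bp of another, so neighbours are not independent.

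Position within the gene went with small differences for TNFa. The median log2 fold change was -0.02 for windows under 5 kb from the nearest start, -0.15 at 5 to 20 kb and at 20 to 50 kb, -0.11 at 50 to 100 kb and -0.21 at 100 kb or more. It was -0.11 in intron 2 and -0.20 in introns 6 to 10. With windows split into 4 bins by level, the median was -0.03 in the lowest bin, -0.15 and -0.25 in the next bins and -0.13 in the highest. The 40 windows in CpG islands had a median of 0.00 (0.003), and 0 of them were at an unadjusted p under 0.05. These are descriptions of groups of 40 to 1961 windows, with no test of the differences.

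The intron windows were set beside the promoters of their hosts. For 716 windows in 398 hosts with a shared promoter window, the log2 fold changes of intron and promoter correlated at 0.0006 for the TNFa main effect and 0.08 for BMP4 (Pearson, across windows that share libraries and hosts), and the signs were the same in 53.4% and 51.5%. Where a host had several promoter windows, the one with the highest level was used. The intron windows named next were picked for a small p, so a smaller change at the promoter follows largely from that choice. In Slc2a1 the intron window was at 1.65 ± 0.38 for TNFa and the promoter window at -0.47. In Sertad4 the promoter was at 0.03, in Dclk2 at -0.38, and in Sox6 the promoter was at 0.54 for BMP4, beside 1.73 ± 0.45 in the intron.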

How the data were processed

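Reads were 150-bp pairs, and all libraries were of batch 1 per the labels. The submitters' processing notes list mm10 and the tools HOMER 4.11, deepTools 3.5.1, Bowtie2 2.5.1, Trimmomatic 0.39 and Picard 2.25.1, with no parameters. Any shift of reads for the transposase is not given in these sources. The authors pooled both libraries of a group and called its peaks against both background libraries, per the file headers, so the 4 lists were called separately. The deposited log2 values are regularised log2 tag counts per window, which the authors fitted with DESeq2 within each list, per the file headers. The deposited peak score and the authors' adjusted p-value and log2 fold change over background only describe how the lists were made.

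Since each list was shrunk on its own, the regularised values were solved back to tag counts. Values within 0.1 of a whole number made up 99.9% in the untreated list, 99.9936% with TNFa, 99.2885% with BMP4 and 99.9968% with both factors. With the constants moved by 5%, 14.1% to 98.9% came out whole, and in simulated data all windows were recovered exactly. The constants were fitted to make the values whole, and the simulation used the same equation and constants. Neither result is therefore an independent check. For windows identical in 2 lists, the background counts solved from each list were equal in 100%. Windows shared by the 4 lists were kept with a scaled count of at least 10 in 2 libraries and a total of at least 15 (14706 windows, 2001 of the 2006 in later introns). Counts were scaled by TMM (trims 0.3 and 0.05), taken as log2 with a pseudocount of 2, so that fold changes of low windows are understated, and fitted over all windows and the 8 libraries with limma 3.58.1 in R 4.3.3, with Benjamini-Hochberg adjustment. Python 3.11.15 was used with numpy 2.4.6, scipy 1.17.1, pandas 2.3.3 and matplotlib 3.10.9.

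The planned exact permutation p-values for shares and median levels over the windows are not given. This set of windows, though defined by annotation, position and a call in each list, was proposed with results known. The set of windows, 13 gene lists and 11 motifs were proposed with earlier results of these data known. No window passed the test in the fit without a replicate block, so the windows named in the text were the 4 per direction with the smallest p among those whose groups did not overlap, the 8 highest, the 4 steadiest, up to 3 per list, and the 6 genes with the most windows; 1 of the highest windows is not reported here. Sequences came from RefSeq promoter stretches (GRCm38.p6), which overlap 17 of the windows and cover 11 whole. Other choices of pseudocount, scaling, filter, start distance, repeats, distance, variance model, replicate block and libraries were tried.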

Additional observations from a re-analysis of the deposited data

How the results depend on the processing

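No later-intron window had an adjusted p under 0.05 by limma in any comparison under any alternative run, except for the TNFa main effect with the replicate number as a block. That fit called 27 windows (1.35%), against 122 of all windows (0.83%), 15 higher and 12 lower, among them Mapt, 3 windows near Bahcc1, Lhfpl2, Slc2a1, Synj2, Itpkb, Cdkl3, Dclk2, Vps53 and Lpp. The numbers share no stated source and there are only 2. Deviations of same-numbered libraries correlated at 0.182 to 0.793 over later introns and 0.104 to 0.761 over all windows, so this pairing is a hint from the data. The count at an unadjusted p under 0.05 was 531 with the block, 174 without it, and 27 with identical starts, where fewer windows are tested.

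The named windows kept their direction in all 1746 values over 82 pairs of window and comparison, and 9 became called, all with the block. These pairs were picked for groups that did not overlap or for a small p, so the kept direction was largely set by that choice. With a mean count of at least 30, the median level of later introns differed by -0.0703 from first introns (-0.219 in the fit reported), by -0.0687 from intergenic windows (-0.0719) and by -0.169 from promoters (-0.502). With identical starts it differed by -0.0708 from first introns and by -0.105 from intergenic windows. The cause was not tested. The BMP4 difference in share, -0.124 percentage points, was 0.0336 with identical starts, 0.0306 over all tags, and -0.706 to 0.398 with 1 library left out (above 0 also without BMP4 replicate 1, and without either library given both factors). Measured as the median log2 level, an alternative chosen after seeing the data, as was leaving out 2 libraries together, the TNFa difference was -0.146. With total-tag scaling 33.9% of later introns were above 0 for TNFa, against 41.1%. Fits on only the compared groups were not made for main effects and the interaction, which use all 8 libraries. Each group has only 2 libraries, and the median later-intron window held 20 tags in TNFa replicate 1 and 64 in BMP4 replicate 2.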
